A study of Homo sapiens with 2 samples.

Results

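The genes described here are 10 regulators and surface proteins of epithelial cells, taken by gene name from a table of 27655 genes: ESRP1, ESRP2, GRHL1, GRHL2, OVOL1, RAB25, CRB3, EPCAM, ST14 and SPINT1. All 10 were found, each once. The rule that finds them is a list of names with no threshold on a value, but the list was drawn up with earlier results of these data known. The table came from poly-A RNA sequencing of PC9-BrM3, cells derived from the lung adenocarcinoma line PC9 that metastasise to brain. One group is labelled shPCDH1, with the genotype PCDH1 knockdown, and the other shNC, with the genotype WT, where sh stands for a short hairpin RNA. Both were grown under routine culture, and GEO lists 1 sample for each. The labels do not say how many hairpins or clones were used. The comparison asks which transcripts change with PCDH1 knockdown.

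The authors' deposited table gives, for each gene, the log2 fold change between 2 coded groups, 8 over 7, with a p-value and an adjusted p-value. Neither code, and none of the 6 library codes in the header, is tied by a label to shPCDH1 or shNC, so every direction below is group 8 relative to group 7. For the same reason the levels per library were not used, and values in single libraries, depth and the cell-type label are not given or checked from levels. Every log2 fold change, p and adjusted p below comes from the authors' deposited table. The standard error after each ± sign is implied by the deposited p under a Wald test, and 95% intervals follow from it. A gene is called higher or lower where its adjusted p is under 0.05. Because nothing states that the libraries were separate cultures, the p-values reflect library spread alone, possibly technical. PCDH1 itself, the targeted protocadherin, had a log2 fold change of -1.38 ± 0.14 (adjusted p = 1.76e-20), which does not by itself assign the codes.

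Epithelial identity is held by layers of regulators. Transcription factors of the grainyhead-like (GRHL) and OVO-like families bind junction genes or repress the transcription factors of epithelial-mesenchymal transition (EMT), and the ESRP proteins direct splicing towards epithelial isoforms. Crumbs and RAB11-type proteins maintain the apical surface, EPCAM is an adhesion and signalling glycoprotein of carcinoma cells, and the membrane protease matriptase, encoded by ST14, works under its inhibitor HAI-1, encoded by SPINT1.

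In the authors' deposited table, 2 of the 10 genes were called higher in group 8, GRHL1 and SPINT1, and 1 was called lower, GRHL2. The other 7 had no call. The background share of calls was 14.1% of all 27655 genes, made of 6.78% called higher and 7.28% called lower. It was 26.0% of the 13609 protein-coding genes whose adjusted p was below 1, a class to which all 10 genes belong. A count of 3 in 10 is therefore near the background of comparable genes and is not a result about the group as a whole. The median log2 fold change of the 10 genes was -0.011, with 5 values above and 5 below 0, against 0.0048 for those 13609 genes. The changes were small. The 10 log2 fold changes ran from -0.40 to 0.83, with a median size of 0.27 against 0.30 for the 13609 genes. Standard errors were between 0.10 and 0.22. At that precision the widest interval among them, that of OVOL1, ran from -0.57 to 0.27.

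**Figure D1:**
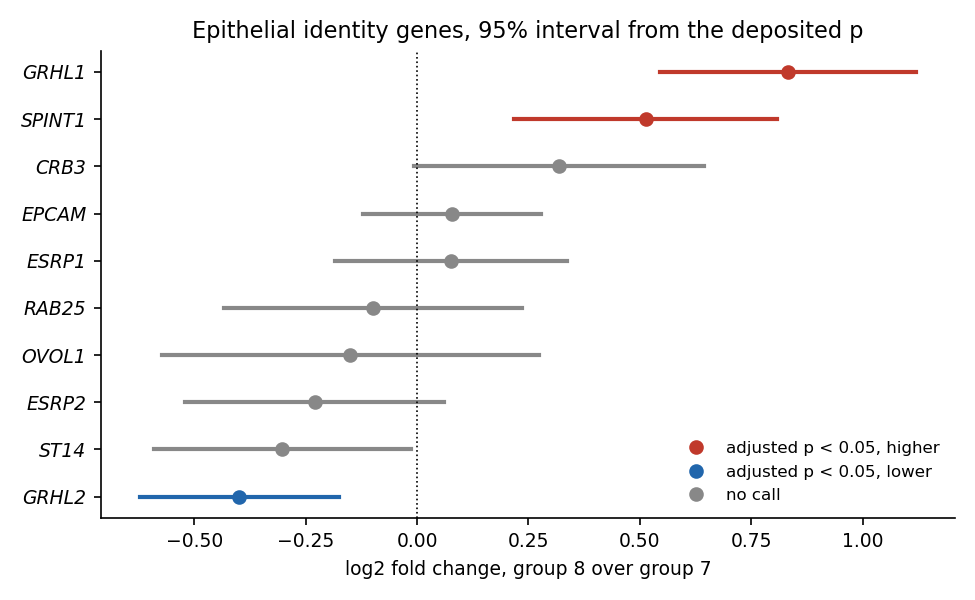
Log2 fold change of group 8 over group 7 for each of the 10 genes (points), with 95% intervals implied by the deposited p (lines). GRHL1 at 0.83 and SPINT1 at 0.51 lie to the right of 0 and GRHL2 at -0.40 to the left. The interval of ST14 ends just below 0, but its adjusted p of 0.13 gave no call.

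**Figure D2:**
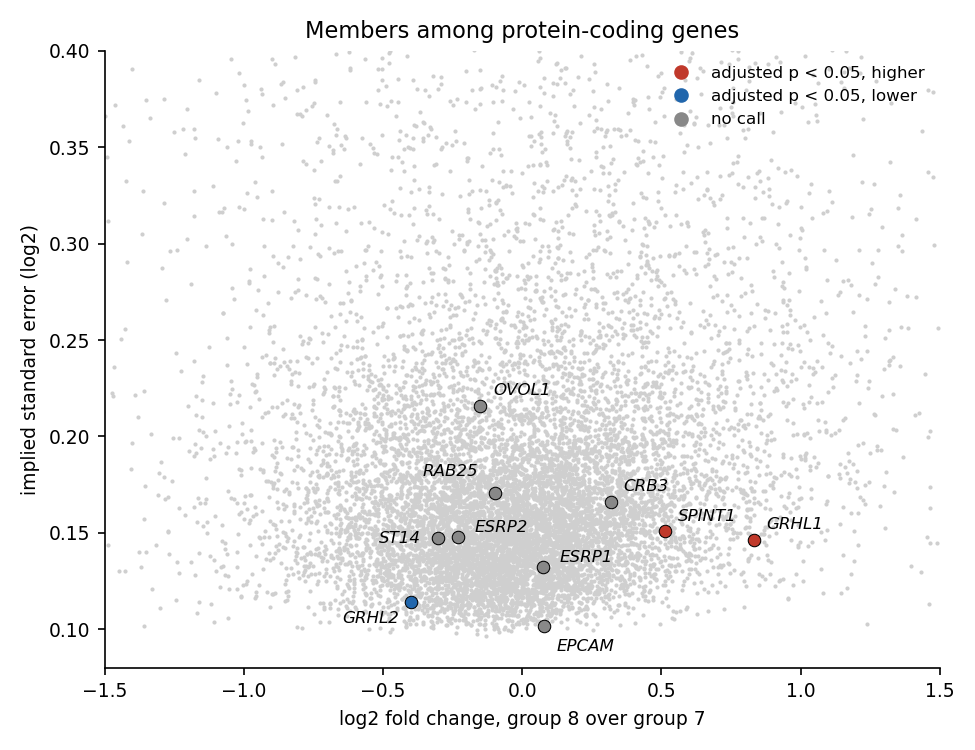
Each grey point is a protein-coding gene whose adjusted p was below 1, placed by its log2 fold change and its implied standard error (log2). Of 13609 such genes, 11242 lie inside the axes shown, and the 10 labelled genes sit within the main cloud with standard errors of 0.10 to 0.22.

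The transcription factors differed among themselves. GRHL1, a grainyhead-like factor known in mouse skin for activating the desmosomal gene Dsg1, was the gene of the 10 with the largest difference. GRHL1 (ENSG00000134317, chromosome 2, 9951693 to 10002277, plus strand) had a log2 fold change of 0.83 ± 0.15 and an adjusted p of 4.27e-07. Group 8 stood at 178% of group 7, with a 95% interval of 146% to 217%, and 13.9% of the protein-coding genes had a difference of larger size.

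GRHL2, which activates CDH1 and other junction genes and represses ZEB1 in epithelial cells, was on the other side. GRHL2 (ENSG00000083307, chromosome 8, 101492432 to 101669726, plus strand) had a log2 fold change of -0.40 ± 0.11 and an adjusted p of 0.00404. Group 8 stood at 75.9% of group 7, with an interval of 65.0% to 88.6%. The intervals of GRHL1 and GRHL2 do not overlap, at 0.55 to 1.12 and -0.62 to -0.18 on the log2 scale. The difference between the 2 genes was not tested, because that needs values of single libraries, which were not used. The antisense gene AP001207.3 overlaps the start of GRHL2 on the minus strand, with 50 bases of shared exon, or 0.825% of GRHL2 exon bases. It was also called lower, at -0.99 ± 0.35 (adjusted p = 0.0255). The library protocol names no strand-marking step, so reads of such pairs cannot be told apart there. Of the 10 genes, 4 share exon bases with a gene on the opposite strand in the table, at most 2.82% of their own.

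OVOL1, a zinc finger repressor that opposes EMT, had no call. OVOL1 (ENSG00000172818, chromosome 11, 65787022 to 65797219, plus strand) had a log2 fold change of -0.15 ± 0.22 (adjusted p = 0.687). Its standard error was the largest of the 10, and its interval of 67.2% to 121% of the group 7 level leaves room for a moderate difference either way. OVOL1-AS1, an antisense RNA inside its span with no shared exon base, had -1.23 ± 0.60 (adjusted p = 0.137).

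The wider grainyhead family also held calls in both directions. The authors' deposited annotation assigns 6 genes of the table to this DNA-binding class, named CP2, and 4 of them were called, 2 in each direction. The background share was 14.1% of all genes and 26.0% of the comparable protein-coding genes. GRHL1 and GRHL2, already counted among the 10 genes, are among those 4. These 6 were taken as a set after their values were seen, so their share is not a result about the family. Besides GRHL1 and GRHL2, TFCP2L1, a CP2 factor, was higher at 1.09 ± 0.20 (adjusted p = 2.27e-06). GRHL3, the grainyhead factor of the epidermal barrier, was lower at -1.02 ± 0.22 (adjusted p = 7.22e-05), which placed group 8 at 49.3% of group 7. TFCP2 and UBP1, the broadly expressed CP2 factors, had 0.0029 ± 0.15 and -0.10 ± 0.12 with no call.

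Among 13 measured epithelial transcription factors outside the 10 genes, 1 was called higher and 5 lower, with a median log2 fold change of -0.046. That is 46.2% called, beside 14.1% of all genes and 26.0% of the protein-coding genes described above. The list was chosen with earlier results known, and its share was not tested. The higher one was TFCP2L1. The lower ones with the smallest adjusted p were GRHL3, TFAP2A, an AP-2 factor of surface epithelium, at -0.52 ± 0.12 (adjusted p = 0.000356), and ZNF750, a regulator of epidermal differentiation, at -1.29 ± 0.32 (adjusted p = 0.000745). OVOL2, the paralog of OVOL1, and ELF3, an epithelial ETS factor, were chosen after their values were seen and had -0.046 ± 0.21 and -0.027 ± 0.18.

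Transcription factors of EMT, many of which repress epithelial genes, showed calls in both directions. Of 11 measured, 3 were higher and 2 lower, with a median of 0.40. The share called was 45.5%, beside 14.1% of all genes and 26.0% of the comparable protein-coding genes, and was not tested. Only 8 of the 11 had an adjusted p below 1, the base of the 26.0%, so the 2 shares have unlike bases. The median includes genes with wide intervals, whose standard errors reach 4.04. SNAI2 (Slug) had 1.09 ± 0.40 (adjusted p = 0.0354), SNAI3 had 1.86 ± 0.59 (adjusted p = 0.0113) and the Krüppel-like factor KLF8 had 0.64 ± 0.21 (adjusted p = 0.0138). TCF3, which encodes the E2A proteins, was lower at -0.53 ± 0.15 (adjusted p = 0.00405) and TWIST2 at -0.62 ± 0.21 (adjusted p = 0.0203). ZEB1 and ZEB2, named after their values were seen as well-known repressors of epithelial genes, had 0.72 ± 1.18 and 3.07 ± 1.53. Both are listed at an adjusted p of 1, which can stand for a gene left out of the adjustment. The deposited unadjusted p of ZEB2 was 0.045. The interval of ZEB1 spans 0, from -1.58 to 3.03, and that of ZEB2 runs from 0.068 to 6.07, so that its size is poorly fixed. SNAI1, which encodes SNAIL and was also named after its value was seen, had -0.25 ± 0.24 (adjusted p = 0.503).

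**Figure D3:**
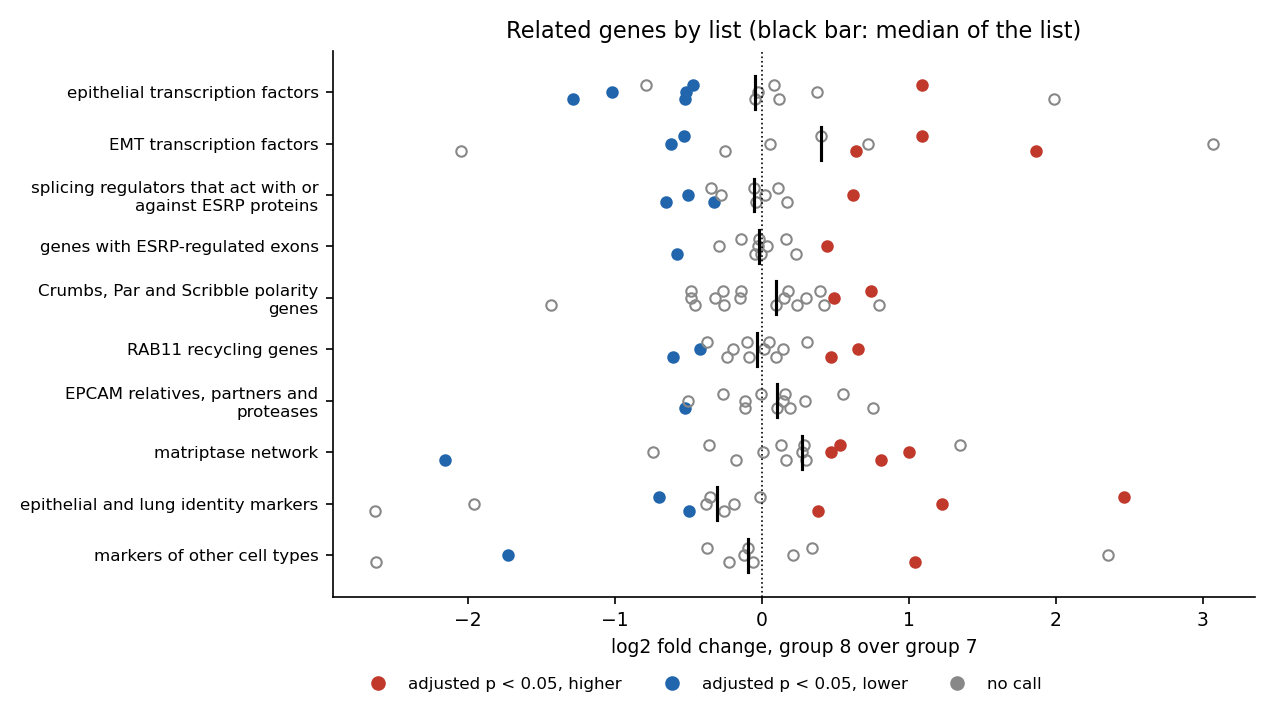
Log2 fold change of group 8 over group 7 for each measured gene of 10 related lists (points, coloured by call), with the median of each list as a black bar. The medians run from -0.31 for epithelial and lung identity markers to 0.40 for EMT transcription factors, and calls in both directions occur in 8 of the 10 lists.

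The splicing regulators ESRP1 and ESRP2, paralogs that promote inclusion or skipping of exons typical of epithelial cells, had no call. ESRP1 (ENSG00000104413, chromosome 8, 94641074 to 94707466, plus strand) had a log2 fold change of 0.076 ± 0.13 (adjusted p = 0.752), with an interval of 88.0% to 126% of the group 7 level. ESRP2 (ENSG00000103067, chromosome 16, 68229111 to 68238102, minus strand) had -0.23 ± 0.15 (adjusted p = 0.289), with an interval of 69.7% to 104%. The 2 intervals overlap. NFATC3, on the opposite strand, shares 149 exon bases with ESRP2, which is 2.68% of ESRP2 exon bases, and had 0.045 ± 0.17 with no call.

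Other splicing regulators did pass the test. Of 11 measured factors that act with or against ESRP proteins, 1 was higher and 3 were lower, with a median of -0.052. This share of 36.4% stands beside 14.1% of all genes and 26.0% of the comparable protein-coding genes, and was not tested. PTBP1, a polypyrimidine tract binding repressor of exons, was lower at -0.65 ± 0.11 (adjusted p = 2.99e-07). HNRNPF was lower at -0.50 ± 0.13 (adjusted p = 0.000825) and HNRNPM, which competes with ESRP1 at shared exons, at -0.33 ± 0.10 (adjusted p = 0.0111). MBNL2, a muscleblind-like factor, was higher at 0.62 ± 0.18 (adjusted p = 0.00629). Of 11 measured genes that carry ESRP-regulated exons, 1 was higher and 1 lower, with a median of -0.021. Their share called was 18.2%, between the same 2 background shares. The higher one was ARHGAP17, at 0.44 ± 0.14 (adjusted p = 0.00817). A gene-level value does not show which isoform was made, so exon choice was not measured.

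At the apical surface, CRB3 and RAB25 had no call. CRB3, the Crumbs protein of most epithelia and the anchor of the apical polarity complex, lies on chromosome 19, 6463777 to 6467221, plus strand (ENSG00000130545). It had a log2 fold change of 0.32 ± 0.17 (adjusted p = 0.166), with an interval of 99.5% to 156% of the group 7 level. RAB25, an epithelial GTPase of the RAB11 branch that recycles membrane to the apical side, lies on chromosome 1, 156061160 to 156070514, plus strand (ENSG00000132698). It had -0.098 ± 0.17 (adjusted p = 0.749), with an interval of 74.1% to 118%. On the opposite strand, SLC25A23 overlaps the span of CRB3 with no shared exon base and had -0.31 ± 0.13 (adjusted p = 0.0652). DENND1C shares 15 exon bases with CRB3 and had -0.050 ± 0.31.

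Both genes carry binding words of EMT repressors at their start sites. SNAIL and ZEB proteins bind the E2 box, written CACCTG and searched on both strands, where it reads CAGGTG on the other. RefSeq promoters on GRCh38.p14, from 250 bases before to 50 after a start site, matched 4 of the genes used here with 5 promoters. An E2 box was present in 20.6% of all 35116 promoters of that length. The CRB3 promoter held 5, a number reached or passed by 0.094% of promoters, the RAB25 promoter held 2 and the GRHL1 promoter 0. Of 2 SPINT1 promoters, 1 held a single E2 box. The grainyhead word AACCNGTT, searched in the same way, was in none of the 5 promoters and in 1.73% of all. A match is a description of the letters and not a binding site. The sequences of CRB3 (chr19:6464021-6464320, plus strand), RAB25 (chr1:156060910-156061209, plus strand) and GRHL1 (chr2:9951443-9951742, plus strand) are printed 5′ to 3′ with E2 boxes in capitals, to set the promoter densest in E2 boxes beside one with few and one with none.
CRB3: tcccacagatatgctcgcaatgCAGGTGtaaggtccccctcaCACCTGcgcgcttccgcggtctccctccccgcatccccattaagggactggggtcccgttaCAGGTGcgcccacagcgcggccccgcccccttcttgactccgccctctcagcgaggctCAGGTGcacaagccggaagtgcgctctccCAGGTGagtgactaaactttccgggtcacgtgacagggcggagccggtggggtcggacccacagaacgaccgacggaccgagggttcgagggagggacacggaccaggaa
RAB25: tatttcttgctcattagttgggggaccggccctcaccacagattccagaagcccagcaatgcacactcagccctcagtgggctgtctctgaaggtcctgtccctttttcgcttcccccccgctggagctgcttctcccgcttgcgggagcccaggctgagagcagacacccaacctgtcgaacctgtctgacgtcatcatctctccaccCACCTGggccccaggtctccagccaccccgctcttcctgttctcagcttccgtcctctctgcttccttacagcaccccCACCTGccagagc
GRHL1: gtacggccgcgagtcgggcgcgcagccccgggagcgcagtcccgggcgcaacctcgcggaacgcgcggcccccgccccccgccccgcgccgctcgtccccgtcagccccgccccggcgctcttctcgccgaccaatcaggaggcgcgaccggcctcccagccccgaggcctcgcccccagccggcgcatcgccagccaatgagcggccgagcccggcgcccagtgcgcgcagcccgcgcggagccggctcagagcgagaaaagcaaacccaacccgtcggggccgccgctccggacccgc

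The CRB3 boxes lie at -228, -208, -147, -89 and -60 from the start site, counted at their first base, and those of RAB25 at -41 and 38. The single SPINT1 box lies at -26. Of the 4 genes with a promoter searched, GRHL1, with no box, and SPINT1, with 1 box in 1 of its promoters, were called higher, and CRB3 and RAB25 had no call. GRHL2, the only one of the 10 genes called lower, was not searched, because chromosome 8 was left out. The same holds for ESRP1, which had no call. Whether the boxes bear on these values was not tested.

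The lists of CRB3 and RAB25 partners held 2 and 4 called genes, at 10.5% and 28.6% of those measured, beside 14.1% of all genes and 26.0% of the protein-coding genes described above, so neither share is a result about its list. Of their 19 and 14 genes, 15 and 13 had an adjusted p below 1, the base of the 26.0%. Of 19 measured genes listed for the Crumbs, Par and Scribble polarity complexes, 2 were higher and 0 lower, with 6 at an unadjusted p under 0.05, and a median of 0.097. MARVELD2, named later because that heading does not describe it, is counted among those 6 and had no call. MPP5, which encodes PALS1, the direct partner of the Crumbs tail, was higher at 0.74 ± 0.14 (adjusted p = 2.65e-06). PRKCI, the atypical protein kinase C of the Par complex, was higher at 0.49 ± 0.15 (adjusted p = 0.00918). Of 14 genes listed for RAB11 recycling, 2 were higher and 2 lower, with a median of -0.035. These counts include CLCA2, named later because that heading does not describe it, which had no call. RAB11B was lower at -0.61 ± 0.13 (adjusted p = 4.31e-05), as was the motor gene MYO5B at -0.42 ± 0.13 (adjusted p = 0.00948). The effector genes RAB11FIP5 and RAB11FIP1 were higher, at 0.66 ± 0.15 (adjusted p = 0.000107) and 0.47 ± 0.13 (adjusted p = 0.00232).

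EPCAM, the adhesion molecule used to capture carcinoma cells, had the most precise value of the 10 and no call. EPCAM (ENSG00000119888, chromosome 2, 47345158 to 47387601, plus strand) had a log2 fold change of 0.079 ± 0.10 (adjusted p = 0.646). Group 8 stood at 106% of group 7, with an interval of 92.0% to 121%, and 85.3% of the protein-coding genes had a difference of larger size. Among 13 measured relatives, partners and proteases of EPCAM, 0 were higher and 1 was lower in the authors' adjusted p, with 4 at an unadjusted p under 0.05, and a median of 0.10. Called genes were thus 7.69% of the list, beside 14.1% of all genes and 26.0% of the comparable protein-coding genes. The list counts and median include KDM1B and NOTUM, named later because that heading does not describe them, which had no call. The lower gene was PSEN2, a presenilin of the gamma-secretase that cleaves EPCAM, at -0.52 ± 0.16 (adjusted p = 0.00877). CLDN7, a claudin that binds EPCAM, had -0.51 ± 0.20 (adjusted p = 0.0511) and was named after its value was seen.

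The matriptase pair stood on opposite sides of 0. SPINT1 (ENSG00000166145, chromosome 15, 40844018 to 40858207, plus strand), which encodes the Kunitz inhibitor HAI-1, was higher at 0.51 ± 0.15 (adjusted p = 0.0054). Group 8 stood at 143% of group 7, with an interval of 116% to 175%. ST14 (ENSG00000149418, chromosome 11, 130159562 to 130210376, plus strand), which encodes matriptase itself, had -0.30 ± 0.15 with a p of 0.0395 and an adjusted p of 0.13, so it had no call. Its interval was 66.4% to 99.0% of the group 7 level. The intervals of the 2 genes do not overlap on the log2 scale, at 0.22 to 0.81 for SPINT1 and -0.59 to -0.015 for ST14, and the difference between them was not tested. SPINT1-AS1, on the opposite strand, shares 100 exon bases with SPINT1, or 2.82% of its exon bases, and had -0.40 ± 0.23 (adjusted p = 0.228).

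Other genes of the matriptase network were called in both directions. Of 15 measured, 4 were higher and 1 lower, with a median of 0.27. This is 33.3% called, near the 26.0% of comparable protein-coding genes and above the 14.1% of all genes, and was not tested. PRSS8, which encodes prostasin, a protease that acts in a cascade with matriptase, was higher at 0.9987 ± 0.14 (adjusted p = 3.39e-10). PLAU, the urokinase whose precursor matriptase can activate, was higher at 0.81 ± 0.16 (adjusted p = 1.37e-05). MST1R, the receptor RON, was higher at 0.53 ± 0.13 (adjusted p = 0.000395). TMPRSS4, another membrane serine protease, was lower at -2.16 ± 0.16 (adjusted p = 2.16e-38), the largest called difference among the related genes apart from NAPSA. SPINT2, which encodes the second matriptase inhibitor HAI-2, had 0.0061 ± 0.14 with no call and was named after its value was seen.

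**Figure D4:**
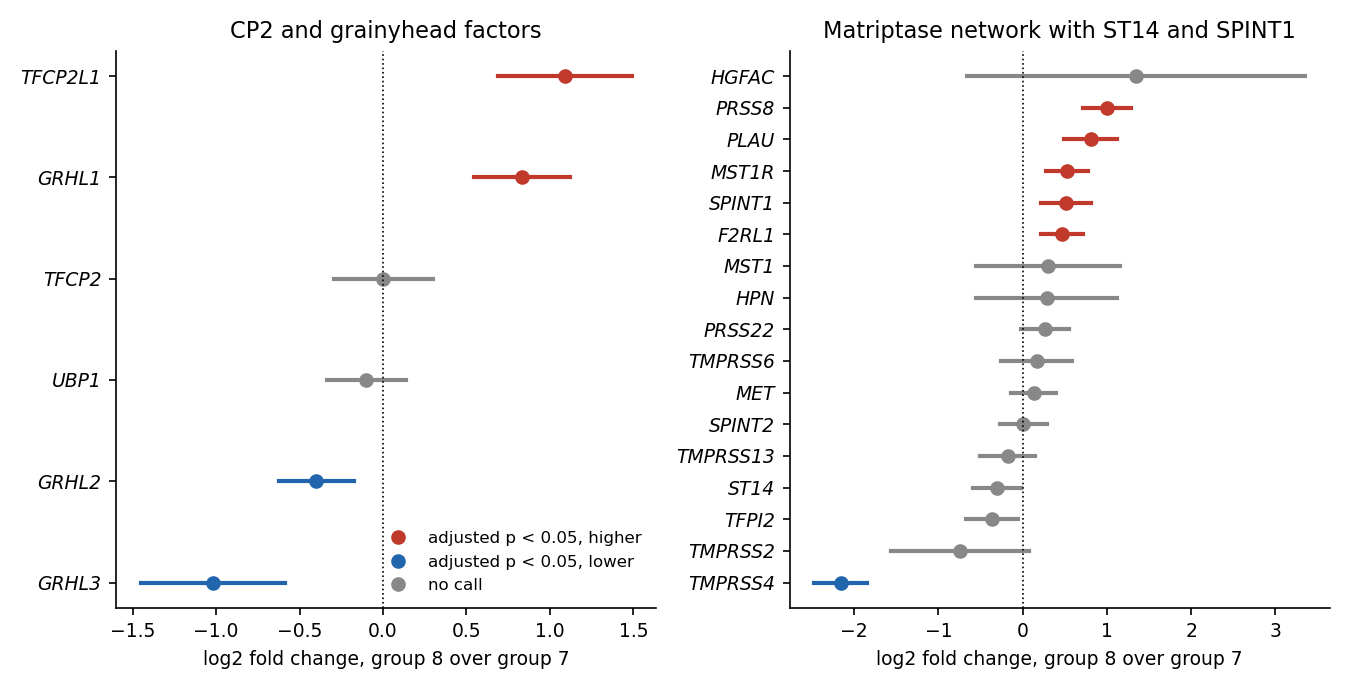
Log2 fold change of group 8 over group 7 with 95% intervals for the 6 CP2 and grainyhead factors (left) and for ST14 and SPINT1 with 15 network genes (right). The horizontal scales of the panels differ. GRHL1 at 0.83 and GRHL3 at -1.02 lie on opposite sides of 0, as do PRSS8 at 0.9987 and TMPRSS4 at -2.16.

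Markers of epithelial and lung identity were mixed too. Of 12 measured, 3 were called higher and 2 lower, with a median of -0.31. Of the log2 fold changes, 3 were above and 9 below 0, and 7 genes had an unadjusted p under 0.05. The share called was 41.7%, beside 14.1% of all genes and 26.0% of the comparable protein-coding genes, and was not tested. Of the 12, 11 had an adjusted p below 1, the base of the 26.0%. CDH1, the E-cadherin gene that GRHL2 activates, was higher at 0.38 ± 0.11 (adjusted p = 0.00411) while GRHL2 was lower. Whether the 2 values are related was not tested. The mucin gene MUC1 was higher at 1.23 ± 0.17 (adjusted p = 1.79e-11), as was the aspartic protease gene NAPSA at 2.47 ± 0.62 (adjusted p = 0.000892). The keratin genes KRT7 and KRT18 were lower, at -0.70 ± 0.15 (adjusted p = 5.95e-05) and -0.50 ± 0.17 (adjusted p = 0.0184). Of 11 measured markers of leukocytes, stromal, endothelial and neural cells, 1 was higher and 1 lower, with 5 listed at an adjusted p of 1. The share called was 18.2% of the 11, above the 14.1% of all genes. Only 6 of the 11 had an adjusted p below 1, the base of the 26.0%, so the share is not set beside it. The called genes were COL1A1 at 1.04 ± 0.17 (adjusted p = 6.81e-08) and PECAM1 at -1.73 ± 0.63 (adjusted p = 0.0329). Their part in the values of the 10 genes was not tested.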

How the data were processed

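Poly-A RNA of PC9-BrM3 cells was sequenced by the authors, with 2 samples in the labels. Per the submitters' processing notes, which list names only, the authors used DESeq2 1.20.0, featureCounts 1.5.0-p3, HISAT2 2.0.5 and CASAVA. Their genome build is not given in the sources used here. In the table, 27655 gene names and 27651 gene spans are those of GENCODE 29 (GRCh38), including those of the 10 genes.

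The authors deposited a log2 fold change, a p-value and an adjusted p-value per gene, per the file headers, together with gene start, end and length. A further 20 columns of values per library or group were not used, because no label ties their codes to shPCDH1 or shNC, so depth is not given. No count model was fitted here.

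Standard errors were computed by dividing the size of each log2 fold change by the normal quantile for its two-sided p, which assumes a Wald test. Simulated p-values of that same form checked the arithmetic alone, and could not check the assumption. Calls are the deposited adjusted p under 0.05 over all genes. No p-value was adjusted over a list. Exon overlaps came from GENCODE 29 and promoters from RefSeq. Python 3.11.15, pandas 2.3.3 and SciPy 1.17.1 were used. The 10 genes and 10 lists of related genes were chosen with earlier results of these data known. The genes named were the 10, PCDH1, overlapping genes and at most 3 called genes per list and direction by adjusted p, besides those said to be chosen later, and some of these are not reported here.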

Additional observations from a re-analysis of the deposited data

How the results depend on the processing

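The 3 calls among the 10 genes, 2 higher and 1 lower, were also made with an adjusted p threshold of 0.01. The same 3 were made with Benjamini-Hochberg adjustment across all deposited p-values, and with protein-coding genes alone. A looser threshold of 0.10 could not remove a call, and the number stayed at 3. Centring subtracted the protein-coding median of 0.017. With a minimum log2 fold change of 0.5 in size, GRHL2 dropped out and 2 remained. At a minimum of 1, the number of the 10 genes called in the authors' adjusted p was 0, since the largest size was 0.83, and 4 of the 10 had an unadjusted p under 0.05. The same minimum left 10 of the 36 calls among the related genes and 1078 of 3887 among all genes, and a threshold of 0.01 left 2547 of 3887. Of these settings, centring alone could change a sign, and it changed none among the 10 genes and PCDH1. It left each adjusted p as deposited, so it says nothing about the calls. No paired analysis was possible because the columns used carry no library values, and leaving out libraries, other normalizations and count filters were not run for that reason. Without levels, a small difference in a gene such as OVOL1 cannot be set against its depth.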
